A study of Mus musculus with 28 samples.

Results

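A set of 9 genes of the complement system were followed in mouse 3LL (Lewis lung carcinoma) cells and in the tumors that these cells formed: C1qa, C1qb, C1qc, C3, C4b, Cfb and Serping1, which encode secreted components or a secreted inhibitor, and C3ar1 and C5ar1, which encode receptors. Their rows were found by gene symbol. All 9 were listed, each by 1 row, among 18509 rows with a symbol (43143 rows in all). The libraries comprised 7 groups of 4, that is 12 libraries of cultured cells (WT, KEAP1-KO and DKO) and 16 tumors. KEAP1-KO cells carried a homozygous frameshift insertion made in Keap1 by CRISPR-Cas9, and DKO cells were KEAP1-KO cells in which the gene of NRF2 had also been edited. Each edited line was grown from a single colony, so genotype cannot be told apart from clone. Tumors grew for 10 days under the skin of albino C57BL/6 male mice, 6 weeks of age, which kept their own immune cells. Each mouse received cells on both flanks, WT on the left and KEAP1-KO on the right in Experiment A, KEAP1-KO on the left and DKO on the right in Experiment B. Flank and genotype therefore changed together, WT and DKO tumors came from different experiments, and which tumors shared a mouse is not given in the sources used here.

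Complement is a cascade of proteases and binding proteins. C1q, built of the chains encoded by C1qa, C1qb and C1qc, starts the classical pathway and is made mostly by macrophages and related cells. C4 carries the classical pathway on to C3, on which all pathways converge, factor B (Cfb) is the protease of the alternative pathway, and the C1 inhibitor (Serping1) restrains the proteases of C1. Cleavage of C3 and C5 releases the small peptides C3a and C5a, which act on myeloid cells through the receptors C3aR (C3ar1) and C5aR1 (C5ar1). In the KEAP1-NRF2 system, KEAP1 marks the transcription factor NRF2 for degradation, so that loss of KEAP1 leaves NRF2 active.

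Values are given on the scale of the deposited table, log2(normalized count + 4), in which the lowest value, 2, stands for a normalized count of 0. The rows of C1qa, C1qb, C4b, Cfb and C3ar1 carried a gene identifier, those of C1qc, C3 and Serping1 belonged to a processed transcript, and that of C5ar1 to a protein-coding transcript, so the last 4 need not follow the whole gene. C4b has a near-identical neighbor, C4a, and reads may be divided between them. Libraries held between 4222324 and 7524322 reads (median 5619769). Keap1 lay between 8.78 and 9.56 in the 8 WT libraries and between 7.13 and 7.86 in the others, and Nqo1, a target of NRF2, lay between 11.93 and 12.54 in KEAP1-KO libraries and between 5.25 and 6.86 in DKO libraries, so both followed the labels. The row of Nfe2l2, the gene of NRF2, is a processed transcript and did not part DKO from KEAP1-KO libraries. The extraction protocol in the labels speaks of liver, yet the albumin row (Alb) had at most 7 reads in any library. Of 7 leukocyte markers, Tyrobp had 0 reads in the 12 libraries of cultured cells, and so did Adgre1, the macrophage marker that encodes F4/80. Macrophage markers as a list were not absent in culture. Their summed normalized count was between 281.7 and 333.4 in WT, 331.6 and 355.4 in KEAP1-KO and 391.9 and 402.3 in DKO cells. In KEAP1-KO tumors A, the tumor group with the lowest sums, it was between 3546.5 and 4340.3. The summed normalized count of the 7 leukocyte markers was between 3.4 and 8.6 in cultured cells, between 2307.2 and 2830.1 in WT tumors, between 529.4 and 654.1 in KEAP1-KO tumors A, between 875.5 and 1115.5 in KEAP1-KO tumors B and between 1475.2 and 2303.6 in DKO tumors.

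The first question was which of the 9 genes the cancer cells transcribed on their own. Of these, 6 were at or near 0 in culture. Over the 12 cultured-cell libraries, C1qa had 4 reads, C1qb 1, C1qc 2, C4b 1 and Cfb 3, and Serping1 had 0 reads, a count that allows up to 3. In the 16 tumors the same genes had 5416 reads (C1qa), 6708 (C1qb), 5679 (C1qc), 715 (C4b), 726 (Cfb) and 325 (Serping1). The other 3 were transcribed by cultured cells: C3ar1 had 479 reads and C3 113 reads with at least 1 read in all 12 libraries, and C5ar1 had 62 reads in 10 libraries.

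**Figure D1:**
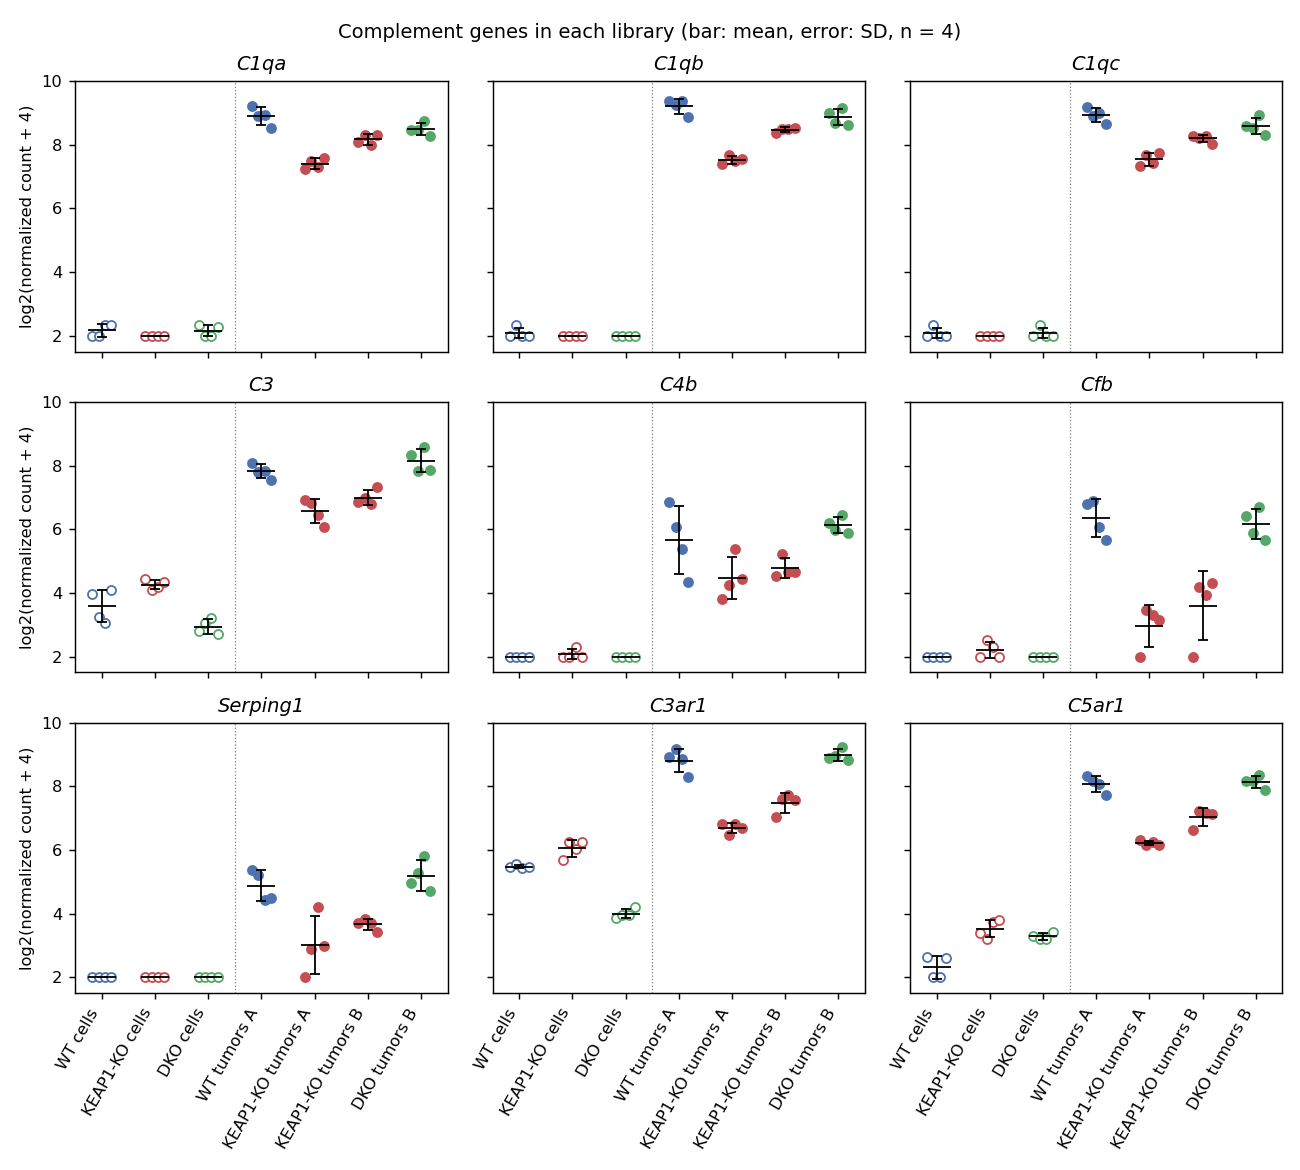
Log2(normalized count + 4) of the 9 complement genes in each library of the 7 groups, with open circles for cultured cells, filled circles for tumors, horizontal bars for group means and error bars for SD (n = 4). C1qa, C1qb, C1qc, C4b, Cfb and Serping1 lay at or near the lowest value of 2 in culture, whereas C3, C3ar1 and C5ar1 did not.

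All 9 genes had higher mean values in tumors than in cultured cells of the same genotype. In the joint fit of all 28 libraries (limma, adjusted p under 0.05 after Benjamini-Hochberg adjustment over the rows tested, as throughout), the 9 were called higher in WT tumors against WT cells, where 38.8% of all rows were called and 24.7% were called higher and 14.1% lower. The 9 were also higher in the KEAP1-KO tumors of both experiments (44.0% of rows called, 27.0% higher and 16.9% lower) and in DKO tumors (43.5% called, 27.6% higher and 15.9% lower). Cells and tumors did not overlap in any of the 9 genes in WT or in DKO, which held for 35.7% and 40.0% of all rows. In KEAP1-KO they overlapped in Cfb, with 0 reads in 1 tumor of each experiment, and in Serping1, with 0 reads in 1 tumor of Experiment A. For C1qa, C1qb, C1qc, C4b, Cfb and Serping1 nothing is read from these calls or shares, because rows with so few reads in culture passed the filter on low values through the tumors alone. C3ar1, which had reads in all cultured-cell libraries, was higher in tumors by 3.33 (SE 0.16, adjusted p = 7.7e-15, limma) in WT, 1.03 (SE 0.14, adjusted p = 8.6e-07) in KEAP1-KO and 4.98 (SE 0.16, adjusted p = 2.4e-18) in DKO. For Cfb in KEAP1-KO the ratio of reads in tumors to those in cells was 10.7, with a 95% exact interval for counting error of 3.5 to 53.7. Counted in reads, C1qb was at least 392-fold higher in KEAP1-KO tumors and at least 638-fold higher in DKO tumors than in the matching cells, and Serping1 at least 32.4-fold, 10.7-fold and 47.8-fold higher in WT, KEAP1-KO and DKO, each against a floor of 3 reads over the group.

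For the 3 genes with reads in culture, the level in cells was set beside that in tumors. C3ar1 had a mean normalized count of 40.7 in WT cells and 454.8 in WT tumors, so the cells stood at 8.95% of the tumors. In KEAP1-KO the cells had 63.4, which was 63.0% of the 100.7 in tumors A and 35.8% of the 177.2 in tumors B. In DKO they had 12.1, 2.39% of the 506.4 in tumors. C3ar1 was thus nearest to its tumor level in KEAP1-KO cells, and the ratio of tumors to cells was 11.1 (95% exact interval for counting error 9.38 to 13.2) in WT, 2.19 (1.92 to 2.51) in KEAP1-KO and 41.8 (31.6 to 56.5) in DKO. For C3, cells reached 3.81% of the tumor level in WT, 16.3% and 12.3% in KEAP1-KO (tumors A and B) and 1.30% in DKO. For C5ar1 the shares were 0.411%, 10.9%, 6.01% and 2.07%, and the WT value rests on 4 reads. These shares compare libraries, and how much of the tumor RNA came from cancer cells was not measured.

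**Figure D2:**
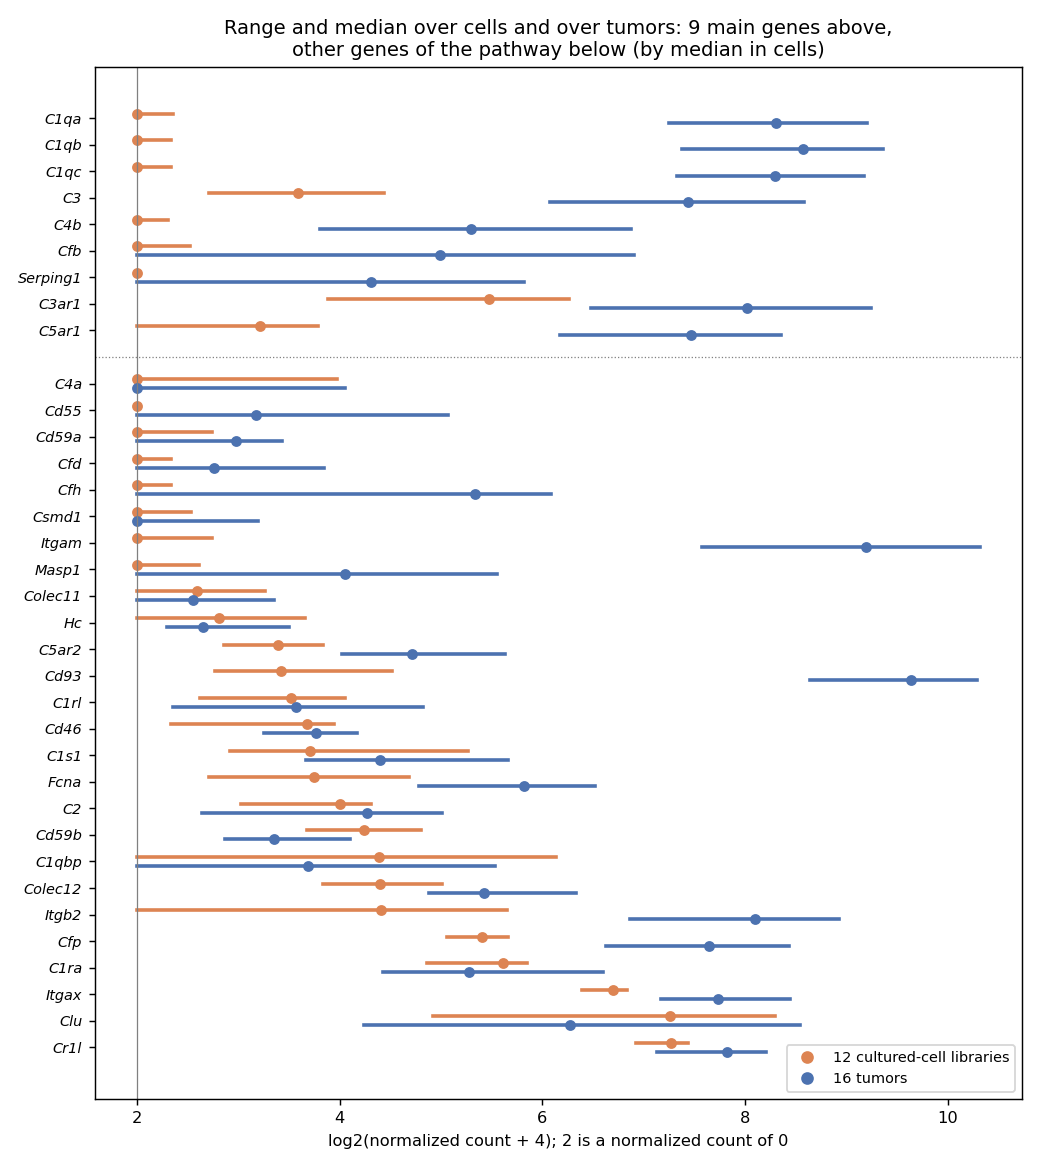
Range (line) and median (point) of log2(normalized count + 4) over 12 cultured-cell libraries (orange) and 16 tumors (blue), for the 9 main genes above the dotted line and for 26 other genes of the pathway below it, sorted by their median in cells. C1q sits at the floor in cells and between 7.25 and 9.36 in tumors, while the ranges of Cr1l and Clu in cells and tumors overlap.

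Of the 9 genes, 5 had an entry in the RefSeq table of promoters (build GRCm38.p6), and 4 of these are shown. They are the 3 genes with reads in culture and C1qb, the C1q gene with the fewest reads in culture, as the 250 bases before the annotated start. All 4 lie on the minus strand, at chr6:122856158-122856407 (C3ar1), chr7:16259339-16259588 (C5ar1), chr17:57228137-57228386 (C3) and chr4:136886201-136886450 (C1qb). A set of 6 motifs was searched on both strands: an antioxidant response element as NRF2 binds it (TGACNNNGC), the AP-1 site (TGANTCA, which can share its first bases with the former), a C/EBP site (TTGCNNAA), a PU.1 site (GAGGAAGT), an interferon-gamma activated site (TTCNNNGAA) and an interferon-stimulated response element. Capitals mark the AP-1 match of C3ar1 at -22 to -16, the C/EBP match of C3 at -45 to -38 and the antioxidant response element match of C1qb, on the reverse strand, at -103 to -95, and C5ar1 had no match in this window.
C3ar1: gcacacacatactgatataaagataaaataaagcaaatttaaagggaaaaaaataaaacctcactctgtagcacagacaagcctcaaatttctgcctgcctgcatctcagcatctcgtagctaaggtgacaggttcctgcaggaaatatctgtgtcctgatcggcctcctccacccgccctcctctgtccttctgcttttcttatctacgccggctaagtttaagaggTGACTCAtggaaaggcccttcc
C5ar1: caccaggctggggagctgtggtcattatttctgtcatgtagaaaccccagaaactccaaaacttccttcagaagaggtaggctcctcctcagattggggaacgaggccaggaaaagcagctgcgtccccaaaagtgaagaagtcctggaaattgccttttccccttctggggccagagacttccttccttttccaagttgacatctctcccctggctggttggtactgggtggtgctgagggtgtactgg
C3: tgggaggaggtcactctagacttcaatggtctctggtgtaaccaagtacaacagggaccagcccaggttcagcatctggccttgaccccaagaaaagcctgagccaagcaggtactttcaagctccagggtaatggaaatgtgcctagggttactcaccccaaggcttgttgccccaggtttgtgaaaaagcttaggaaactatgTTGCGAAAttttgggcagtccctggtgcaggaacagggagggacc
C1qb: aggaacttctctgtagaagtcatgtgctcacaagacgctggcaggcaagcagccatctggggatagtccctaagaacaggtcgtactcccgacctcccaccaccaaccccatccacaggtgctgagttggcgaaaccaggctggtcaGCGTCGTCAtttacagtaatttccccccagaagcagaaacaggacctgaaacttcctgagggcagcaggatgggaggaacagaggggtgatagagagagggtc
Among 32851 promoters of the same length, 6.75% held the AP-1 letters, 9.56% the C/EBP letters, 10.2% the antioxidant response element letters, 2.44% the PU.1 letters, 7.02% the interferon-gamma site and 2.98% the interferon-stimulated element. The promoter of C1qc, at chr4:136892915-136893164 (minus strand) beside C1qb, held the PU.1 letters on the reverse strand at -195 to -188. A match describes the letters and not a bound site.

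Experiment A asked how loss of KEAP1 in the cancer cells changed the tumor. In KEAP1-KO tumors 8 of the 9 genes were lower (limma, 16 tumors in the fit), where 13.1% of all rows were called, 7.49% lower and 5.61% higher, and the median difference of the 9 was -1.69 against -0.03 over all rows. The same 8 genes did not overlap between the groups, which held for 16.3% of all rows. Leukocyte markers moved with them: 7 of 7 were called lower (median -2.13), as were 10 of 12 macrophage markers (median -1.66) and 6 of 8 neutrophil markers (median -1.84), whereas 0 of 7 endothelial markers was called (median -0.05). Of T and NK cell markers 3 of 4 were called lower (median -1.86), and of dendritic cell markers 2 of 5 (median -0.36). Of 8 fibroblast markers 2 were called lower (median -1.13), and their summed normalized count was between 4862.0 and 12251.7 in WT and between 1983.0 and 4853.6 in KEAP1-KO tumors. The part of these cell contents in the complement differences was not tested. In bulk tumors, fewer cells of a type and less RNA per cell cannot be told apart.

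C1q fell in all its chains. C1qa was 9.20, 8.91, 8.94 and 8.51 in the 4 WT tumors and 7.25, 7.49, 7.30 and 7.59 in the KEAP1-KO tumors. C1qb was 9.36, 9.26, 9.36 and 8.87 in WT and 7.38, 7.67, 7.49 and 7.56 in KEAP1-KO tumors. The lowest WT tumor stood above the highest KEAP1-KO tumor by more than the range within either group in both genes. C1qa fell by 1.48 (SE 0.14, adjusted p = 2.4e-06, limma), C1qb fell by 1.69 (SE 0.13, adjusted p = 2.1e-07) and C1qc fell by 1.40 (SE 0.14, adjusted p = 3.5e-06).

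C3, Cfb and Serping1 were lower as well, whereas C4b did not pass the test. C3 was 8.08, 7.81, 7.83 and 7.55 in WT and 6.92, 6.83, 6.46 and 6.07 in KEAP1-KO tumors, and it fell by 1.25 (SE 0.20, adjusted p = 4.9e-04, limma). Cfb was 6.78, 6.90, 6.07 and 5.66 in WT tumors, and 2.0, 3.45, 3.29 and 3.15 in KEAP1-KO tumors, of which the first had 0 reads and the others 5 or 6. Cfb fell by 3.38 (SE 0.47, adjusted p = 1.2e-04), the largest difference among the 9. Serping1 was 5.38, 5.22, 4.42 and 4.50 in WT and 2.0, 2.90, 4.21 and 2.98 in KEAP1-KO tumors, and it fell by 1.86 (SE 0.38, adjusted p = 0.00359, limma). C4b ranged from 4.33 to 6.87 in WT and from 3.81 to 5.38 in KEAP1-KO tumors. These ranges overlapped, and its difference of -1.19 (SE 0.43) did not pass the test (adjusted p = 0.0822), although it did without WT replicate 4 (-1.64, adjusted p = 0.00695) or without KEAP1-KO replicate 3 (-1.50, adjusted p = 0.0291).

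The receptors C3ar1 and C5ar1 fell together. C3ar1 was 8.92, 9.16, 8.85 and 8.31 in WT tumors and 6.82, 6.48, 6.81 and 6.70 in KEAP1-KO tumors, and it fell by 2.11 (SE 0.17, adjusted p = 5.8e-07, limma). C5ar1 was 8.32, 8.18, 8.09 and 7.72 in WT and 6.31, 6.17, 6.26 and 6.17 in KEAP1-KO tumors, and it fell by 1.85 (SE 0.14, adjusted p = 3.4e-07). The 4 KEAP1-KO tumors differed little among themselves in either receptor, with an SD of 0.16 for C3ar1 and 0.07 for C5ar1. WT replicate 4 was the lowest WT tumor in 8 of the 9 genes, and its macrophage markers summed to 7912.2 normalized counts against 10629.5 to 10690.6 in the other 3.

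Experiment B asked what removal of NRF2 did on top of the loss of KEAP1. In DKO tumors 5 of the 9 genes were higher than in KEAP1-KO tumors, where 8.86% of rows were called, 4.22% higher and 4.64% lower, and the median difference was 1.16 against 0.00 over all rows. C3, Cfb, Serping1 and both receptors passed the test, and C1q and C4b did not. Groups did not overlap in 8 of the 9 genes, C1qa being the exception, which held for 14.6% of all rows. Leukocyte markers were called higher in 6 of 7 (median 0.99), macrophage markers in 8 of 12 (median 0.86) and neutrophil markers in 3 of 8 (median 0.96). Of T and NK cell markers 2 of 4 were called higher (median 0.85). Of 5 dendritic cell markers 1 was higher and 1 lower, and of 7 endothelial markers 1 was lower (median -0.29). Of 8 fibroblast markers 3 were called higher (median 0.50), with sums between 2859.9 and 3592.5 in KEAP1-KO tumors B and between 10804.1 and 14694.8 in DKO tumors, and both skeletal muscle markers tested were higher in DKO tumors. The part of these cell contents in the complement differences was not tested.

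C3ar1 was 7.03, 7.60, 7.73 and 7.56 in KEAP1-KO tumors B and 8.90, 8.97, 9.24 and 8.84 in DKO tumors. It rose by 1.51 (SE 0.17, adjusted p = 3.1e-05, limma), and the lowest DKO tumor stood above the highest KEAP1-KO tumor. C5ar1 was 6.64, 7.22, 7.17 and 7.13 in KEAP1-KO tumors and 8.16, 8.16, 8.35 and 7.89 in DKO tumors, and it rose by 1.10 (SE 0.14, adjusted p = 1.2e-04). C3 was 6.85, 6.97, 6.80 and 7.32 in KEAP1-KO tumors and 8.32, 7.82, 8.58 and 7.87 in DKO tumors, and it rose by 1.16 (SE 0.20, adjusted p = 0.00137, limma). Cfb was 2.0, 4.17, 3.92 and 4.31 in KEAP1-KO tumors, of which the first had 0 reads, and 6.43, 5.87, 6.69 and 5.67 in DKO tumors. Its rise was 2.57 (SE 0.47, adjusted p = 0.00225, limma), and 2.03 without the tumor at 0 reads. Serping1 was 3.70, 3.83, 3.71 and 3.43 in KEAP1-KO tumors and 4.97, 5.29, 5.82 and 4.71 in DKO tumors. It rose by 1.53 (SE 0.38, adjusted p = 0.0189), but it did not pass with a pseudocount of 1 (1.79, adjusted p = 0.0795), when replicate numbers entered the fit (adjusted p = 0.0678), without KEAP1-KO replicate 4 (1.45, adjusted p = 0.0541) and without DKO replicate 3 (1.32, adjusted p = 0.0673).

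The differences of the C1q genes between DKO and KEAP1-KO tumors did not pass the test. C1qa was 8.07, 8.31, 7.99 and 8.29 in KEAP1-KO tumors B and 8.46, 8.47, 8.76 and 8.28 in DKO tumors, with a difference of 0.33 (SE 0.14, adjusted p = 0.19, limma). C1qb ranged from 8.36 to 8.54 and from 8.61 to 9.14, without overlap, and its difference was 0.38 (SE 0.13, adjusted p = 0.0748). For C1qc the difference was 0.40 (SE 0.14, adjusted p = 0.0892). C4b differed by 1.36 with a wider error (SE 0.43, adjusted p = 0.0613). Whether C1q differed in its response from C3ar1 or C5ar1 was not tested. DKO replicate 3 was the highest DKO tumor in all 9 genes and had the highest leukocyte sum (2303.6), and DKO replicate 4 was the lowest in 8 and had the lowest (1475.2). Without DKO replicate 4, C1qb (0.47, adjusted p = 0.0368) and C1qc (0.49, adjusted p = 0.0423) passed the test. Both also passed with quantile normalization (adjusted p = 0.0347 and 0.0399) and without the 20 highest rows (adjusted p = 0.0255 and 0.0306), and C1qb with a filter on a mean of 25 (adjusted p = 0.0443). C4b passed with that filter (adjusted p = 0.0384), without the 20 highest rows (adjusted p = 0.0463) and with only the groups compared in the fit (adjusted p = 0.00358). C1qa passed in none of the alternatives run.

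**Figure D3:**
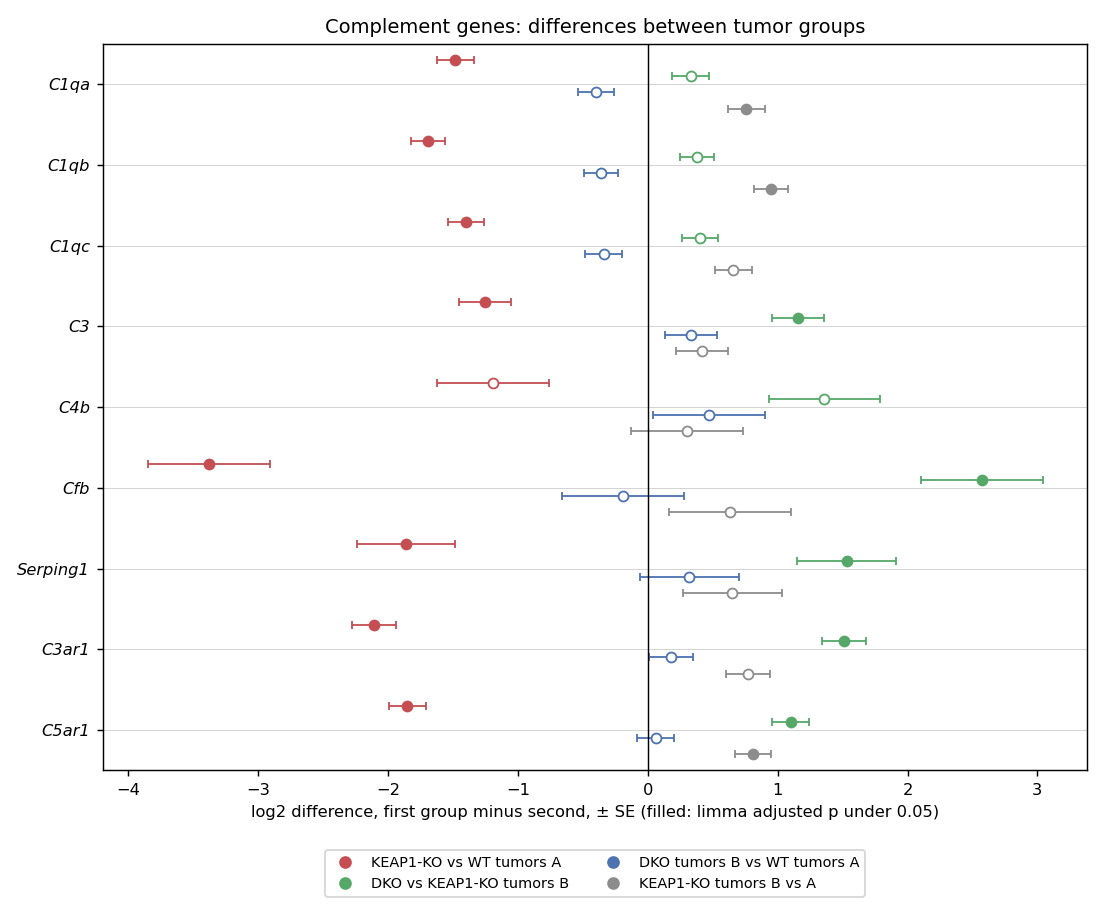
Log2 differences (points) with standard errors (bars) of the 9 complement genes in 4 comparisons between tumor groups of 4, with filled points for an adjusted p under 0.05 in the limma fit. The red points (KEAP1-KO against WT, Experiment A) lie at or below -1.19, and the green points (DKO against KEAP1-KO, Experiment B) lie between 0.33 and 2.57.

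The 2 groups of KEAP1-KO tumors were compared with each other because they were grown in different experiments and flanks. C1qa (0.76, SE 0.14, adjusted p = 0.0473, limma), C1qb (0.95, SE 0.13, adjusted p = 0.0141) and C5ar1 (0.81, SE 0.14, adjusted p = 0.0458) were higher in Experiment B, while 0.164% of all rows were called, 0.152% higher and 0.0117% lower. C1qc stood at 0.66 (SE 0.14) and C3ar1 at 0.77 (SE 0.17), neither of which passed the test. In C1qa, C1qb, C1qc, C3ar1 and C5ar1, each KEAP1-KO tumor of Experiment B lay above each one of Experiment A, which held for 4.11% of all rows. These calls were not stable, since between 0 and 3 genes passed when each library was left out in turn. C1qb fell out without KEAP1-KO tumors A replicate 1 (0.90, adjusted p = 0.0639) or tumors B replicate 4 (0.93, adjusted p = 0.0624), and C1qa fell out without any 1 of the 8 tumors (adjusted p between 0.0547 and 0.167). C5ar1 passed only without tumors B replicate 1 (0.94, adjusted p = 0.0164) and not without any of the other 7 (adjusted p between 0.0711 and 0.151). The C1q differences between experiments within 1 genotype were thus 0.66 to 0.95, beside 0.33 to 0.40 between DKO and KEAP1-KO tumors in Experiment B. Both sets share the KEAP1-KO tumors B, and their sizes were not tested against each other. Of 12 macrophage markers 4 were called higher in Experiment B as well, and of 7 leukocyte markers 2.

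DKO and WT tumors, which came from different experiments, were set side by side. None of the 9 genes was called (limma), 3 had an unadjusted p under 0.05, and the groups overlapped in all 9, while 10.6% of all rows were called, 4.57% higher and 5.99% lower, and 16.5% did not overlap. The 3 were C1qa (-0.40, SE 0.14, adjusted p = 0.0845), C1qb (-0.36, SE 0.13, adjusted p = 0.0891) and C1qc (-0.34, SE 0.14, adjusted p = 0.135). C3ar1 differed by 0.18 (SE 0.17), C5ar1 by 0.06 (SE 0.14), C3 by 0.33 (SE 0.20), Cfb by -0.19 (SE 0.47), Serping1 by 0.32 (SE 0.38) and C4b by 0.47 (SE 0.43). The wide errors of the last 3 leave room for sizeable differences. Without DKO replicate 3, all 3 C1q genes were called lower in DKO than in WT tumors (C1qa -0.49, C1qb -0.45 and C1qc -0.46, with adjusted p of 0.0449, 0.0332 and 0.0381), and without WT replicate 4 so were C1qa (-0.52, adjusted p = 0.0177) and C1qb (-0.47, adjusted p = 0.0191). Here genotype cannot be told apart from experiment or flank, and 6 of 8 neutrophil markers were called lower in DKO tumors (median -1.14) beside 1 of 12 macrophage, 2 of 7 leukocyte and 2 of 5 dendritic cell markers, whereas of 8 fibroblast markers 3 were higher and 1 lower, and both skeletal muscle markers tested were higher (median 2.74).

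Ordered by group mean, the tumors fell into the same sequence for all 3 C1q genes, with WT above DKO, then KEAP1-KO tumors B, then KEAP1-KO tumors A. For C3, C4b, Serping1, C3ar1 and C5ar1 the DKO tumors came first and WT tumors next, with no test passed between these neighbors, followed again by KEAP1-KO tumors B and A. Cfb had WT first (6.35 ± 0.59, SD, n = 4) and DKO next (6.17 ± 0.48).

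In cultured cells, where leukocyte markers were near 0, only C3, C3ar1 and C5ar1 passed the filter on low values and could be tested. C3ar1 was 5.46, 5.56, 5.43 and 5.48 in WT cells, 5.68, 6.26, 6.03 and 6.26 in KEAP1-KO cells and 3.88, 3.96, 3.96 and 4.21 in DKO cells. The 3 groups did not overlap, whereas 19.6% of all rows did not overlap between KEAP1-KO and WT cells, 14.5% between DKO and KEAP1-KO cells and 21.2% between DKO and WT cells. In KEAP1-KO cells C3ar1 was 0.58 higher than in WT cells (SE 0.15, adjusted p = 0.0227, limma, with 15.5% of rows called, 8.13% higher and 7.33% lower). This call was lost when any 1 of 5 libraries was left out: WT replicate 1 (adjusted p = 0.0516), WT replicate 3 (0.056) or KEAP1-KO replicates 2 (0.0755), 3 (0.0518) or 4 (0.0752). In DKO cells C3ar1 fell by 2.05 against KEAP1-KO cells (SE 0.15, adjusted p = 2.0e-06, with 8.83% of rows called, 4.85% lower and 3.98% higher). Against WT cells it fell by 1.48 (SE 0.15, adjusted p = 2.1e-05, with 17.7% of rows called, 9.20% lower and 8.46% higher).

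C3 gave 3.95, 3.23, 3.06 and 4.08 in WT cells, 4.44, 4.10, 4.18 and 4.33 in KEAP1-KO cells and 2.79, 3.04, 3.21 and 2.71 in DKO cells, from 3 to 19 reads a library. It fell by 1.32 in DKO against KEAP1-KO cells (SE 0.27, adjusted p = 0.00669, limma), while KEAP1-KO against WT (0.68, SE 0.27, adjusted p = 0.113) and DKO against WT (-0.64, SE 0.27, adjusted p = 0.127) did not pass. C5ar1 had 0 to 2 reads in each WT library, 6 to 11 in KEAP1-KO and 5 to 8 in DKO libraries. It was higher than in WT cells in both KEAP1-KO cells (1.22, SE 0.25, adjusted p = 0.00461) and DKO cells (0.97, SE 0.25, adjusted p = 0.0164), and DKO against KEAP1-KO cells gave -0.25 (SE 0.25, adjusted p = 0.672). The row of C5ar1 passed the filter through KEAP1-KO and DKO cells alone, the groups in which it was higher, so both calls against WT cells are given as a description. Of the 12 macrophage markers, 4 passed the filter in cells, with Cd14 and Cd68 read in all 12 libraries, so cultured 3LL cells transcribed a few genes used as myeloid markers.

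The changes in cultured cells and in tumors thus ran in opposite directions for C3ar1, and the difference between them was tested. The effect of KEAP1 loss on C3ar1 was lower in tumors A than in cells by an interaction of -2.68 (SE 0.23, adjusted p = 2.4e-08, limma), and the effect of NRF2 removal was higher in tumors B than in cells by 3.56 (SE 0.23, adjusted p = 1.2e-09). C5ar1 gave -3.06 (SE 0.25, adjusted p = 1.1e-08) and 1.35 (SE 0.25, adjusted p = 0.00127), and C3 gave -1.93 (SE 0.31, adjusted p = 1.8e-04) and 2.49 (SE 0.31, adjusted p = 1.6e-05). The -3.06 of C5ar1 includes its difference between KEAP1-KO and WT cells, with 4 reads in WT cells, so it is given as a description. For the effect of KEAP1, 8 of the 9 genes were called lower in tumors than in cells (5.38% of rows called, 3.88% lower), with C4b not called (-1.27, SE 0.50, adjusted p = 0.17). For the effect of NRF2, 4 of the 9 were called higher (3.67% of rows called, 2.12% higher): C3, C3ar1, C5ar1 and Cfb (2.77, SE 0.55, adjusted p = 0.00302). Over all rows the balance of these interaction calls turned with median centring, from 27.9% to 54.8% higher for KEAP1 and from 57.7% to 42.7% higher for NRF2, while 8 and 4 members were called there too. The 6 genes at or near 0 in culture passed the filter through the tumors alone. For them the interaction carries little beyond the difference between tumors, and nothing is read from their part in these counts.

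**Figure D4:**
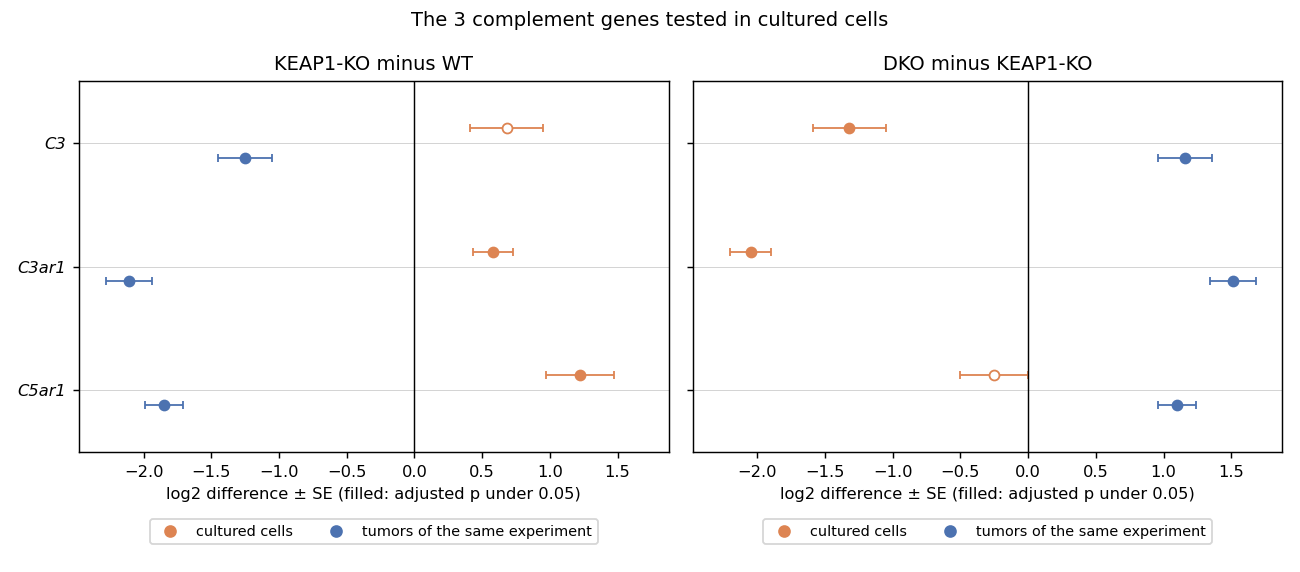
Log2 differences (points) with standard errors (bars) for C3, C3ar1 and C5ar1 in cultured cells (orange) and tumors (blue), for KEAP1-KO minus WT on the left (tumors of Experiment A) and DKO minus KEAP1-KO on the right (tumors of Experiment B), with filled points for an adjusted p under 0.05. C3ar1 in KEAP1-KO stood at 0.58 in cells and -2.11 in tumors, and in DKO at -2.05 in cells and 1.51 in tumors.

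The genes whose values were most like those of the members over the 16 tumors were named by Pearson's r among 7690 rows with a mean of at least 5. The r values describe these tumors, which share their 4 groups, and carry no test. C3ar1 and C5ar1 were each other's nearest gene (0.99), and with the group means taken off r was 0.89. The next for C3ar1 were Pid1 (0.99) and Gvin3 (0.98), and those for C5ar1 were Ctss, which encodes cathepsin S (0.99), and Gvin3 (0.98). For C1qb they were C1qa, Msr1, a scavenger receptor of macrophages, and Tifab (0.98 each), and for C1qa they were Sirpa, Ms4a4a and C1qb (0.98 each). Cfb was nearest to Tlr8 (0.97), Igtp, an interferon-inducible GTPase (0.96), and Ms4a6d (0.96), and C3 to Irgm2, of the same GTPase family, Zfp992 and Pik3r1 (0.95 each). Serping1 and C4b had Ptpn7 in common (0.96 and 0.92), and their r with each other after the group means were taken off was 0.78. C1qc was nearest to C1qb and Tlr1 (0.98 each).

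Of 49 other genes of the pathway, 26 were listed and 22 were tested in tumors. In Experiment A, 11 were called lower and 1 higher in KEAP1-KO tumors (median -0.93), and in Experiment B, 4 were called higher and 1 lower in DKO tumors (median 0.46), beside the same shares of all rows as above. In cultured cells 17 were tested, of which 4 were lower and 0 higher in KEAP1-KO than in WT cells (7.33% and 8.13% of all rows), and 2 were higher and 1 lower in DKO than in KEAP1-KO cells (3.98% and 4.85% of all rows). Cultured cells had at least 1 read in all 12 libraries for 14 of the 26.

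Among receptors and adhesion molecules, Itgam and Itgb2, which form complement receptor 3, followed the members in tumors. Itgam (a processed transcript) fell by 2.46 with KEAP1 loss (SE 0.12, adjusted p = 4.0e-09, limma) and rose by 1.39 in DKO tumors (SE 0.12, adjusted p = 3.0e-06), and it had 7 reads in all cultured cells. Within the KEAP1-KO genotype, Itgam (0.87, SE 0.12, adjusted p = 0.0141) and Cd93 (0.62, SE 0.11, adjusted p = 0.0406) were higher in Experiment B than in Experiment A. Itgb2 fell by 1.60 and rose by 0.99 in tumors (adjusted p = 1.2e-06 and 2.4e-04), whereas in cultured cells it fell by 1.85 in DKO against KEAP1-KO (SE 0.40, adjusted p = 0.0103), a direction opposite to that in tumors, with an interaction of 2.84 (SE 0.41, adjusted p = 8.0e-05). Itgb2 ranged from 2.0 (0 reads) to 4.14 in DKO cells and from 5.15 to 5.65 in KEAP1-KO cells, so the sizes of both values lean on a library without reads. Itgax (a retained intron) fell by 0.83, Cd93, a receptor of endothelial and myeloid cells, fell by 1.28, and C5ar2, a second receptor of C5a, fell by 0.90 in KEAP1-KO tumors (adjusted p = 6.3e-04, 6.7e-07 and 0.00706), and none of these 3 passed the test in DKO against KEAP1-KO tumors. In cultured cells Cd93 rose by 0.98 in DKO against KEAP1-KO (SE 0.24, adjusted p = 0.0246).

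Among soluble components, Cfp (a processed transcript), the gene of properdin, fell by 1.35 in KEAP1-KO tumors (adjusted p = 8.3e-05, limma). C1s1, a protease of C1, fell by 1.33 (adjusted p = 0.00333). In DKO against KEAP1-KO tumors neither Cfp (0.56, adjusted p = 0.0682) nor C1s1 (0.82, adjusted p = 0.0809) passed the test. Cfd, the gene of factor D, had 22 reads in the 4 WT tumors, 2 in KEAP1-KO tumors A, 4 in KEAP1-KO tumors B and 31 in DKO tumors. Its row passed the filter through WT and DKO tumors alone, so its differences of -0.98 and 1.19 are given as a description. C1s1 was lower in KEAP1-KO cells as well, where it fell by 1.32 (adjusted p = 0.0138). Fcna, the gene of ficolin A, fell in KEAP1-KO tumors by 0.70 (adjusted p = 0.0218) and again in DKO against KEAP1-KO tumors by 1.04 (adjusted p = 0.00202), and in KEAP1-KO against WT cells it fell by 0.92 (adjusted p = 0.0322).

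Among regulators, Clu, the gene of clusterin, an inhibitor of the terminal pathway, changed alike in cells and tumors. Its row, a transcript subject to nonsense-mediated decay, ranged from 8.07 to 8.29 in WT cells, from 4.92 to 5.47 in KEAP1-KO cells and from 7.10 to 7.38 in DKO cells. It fell by 3.03 in KEAP1-KO cells (SE 0.12, adjusted p = 4.1e-09, limma) and fell by 2.91 in KEAP1-KO tumors (SE 0.34, adjusted p = 2.2e-05), and it rose by 2.09 in DKO cells and 3.10 in DKO tumors (adjusted p = 1.2e-07 and 2.1e-05). The interactions for Clu were 0.12 (SE 0.39, adjusted p = 0.933) and 1.01 (SE 0.39, adjusted p = 0.209). Cr1l (a retained intron), whose product Crry limits C3 on mouse cells, rose by 0.63 in KEAP1-KO tumors (adjusted p = 0.00203) and fell by 0.36 in KEAP1-KO cells (adjusted p = 0.00762), with an interaction of 0.99 (SE 0.15, adjusted p = 6.3e-05). In DKO tumors Cr1l differed by -0.08 from KEAP1-KO tumors (adjusted p = 0.786) and stood 0.58 above WT tumors (adjusted p = 0.00512). Cd55 (a retained intron) had 0 reads in cultured cells and fell by 1.42 in KEAP1-KO tumors (SE 0.44, adjusted p = 0.0457), with 0.12 in DKO against KEAP1-KO tumors (adjusted p = 0.926).

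**Figure D5:**
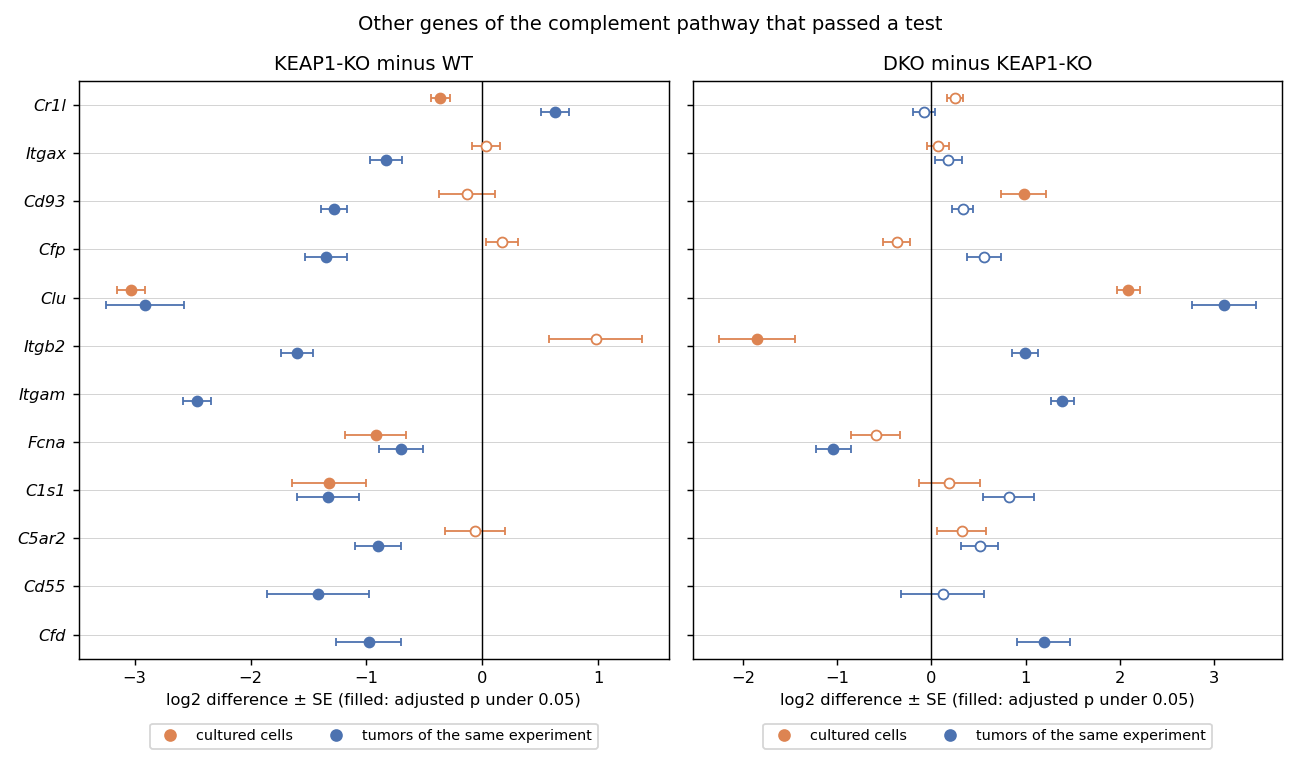
Log2 differences (points) with standard errors (bars) for the 12 other genes of the complement pathway that were called in at least 1 of 4 comparisons, in cultured cells (orange) and tumors (blue), for KEAP1-KO minus WT on the left and DKO minus KEAP1-KO on the right, with filled points for an adjusted p under 0.05. Clu moved the same way in cells and tumors, and Itgam, Cd55 and Cfd have no orange points because they did not pass the filter in cells.

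Genes known to drive transcription of complement genes were examined next to the members. Of 23 tested in tumors, 12 were called lower and 1 higher in KEAP1-KO than in WT tumors, beside 7.49% and 5.61% of all rows, with a median of -1.18 against -0.03 over all rows. In DKO against KEAP1-KO tumors 8 were higher and 1 lower, beside 4.22% and 4.64% of all rows, with a median of 0.22 against 0.00. The inducers named here were chosen after their values were seen. Spi1, which encodes the myeloid factor PU.1, fell by 1.72 (SE 0.15, adjusted p = 1.4e-06, limma) and rose by 0.87 (SE 0.15, adjusted p = 0.00159). Il1b (a retained intron) fell by 2.81 and rose by 1.78, and Tnf fell by 1.82 and rose by 0.98. Cebpb, a factor of the acute-phase response, went the other way in tumors, with 0.37 (SE 0.09, adjusted p = 0.0133) in KEAP1-KO and -0.91 (SE 0.09, adjusted p = 1.1e-05) in DKO, and it did so in cells too (0.61 and -0.59, adjusted p = 8.6e-04 and 0.00185). Cebpd, a factor of the same family, did not pass the test in KEAP1-KO against WT cells (0.29, SE 0.19, adjusted p = 0.365) and rose by 1.67 in DKO against KEAP1-KO cells (SE 0.19, adjusted p = 8.1e-05, limma), where Cebpb and C3ar1 fell. Of the inducers, 13 were tested in cultured cells, with 2 higher and 3 lower in KEAP1-KO against WT cells (8.13% and 7.33% of all rows) and 2 higher and 3 lower in DKO against KEAP1-KO cells (3.98% and 4.85% of all rows). Whether any of these genes acts on the complement genes was not measured.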

How the data were processed

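RNA-seq of 28 libraries was used (12 of cultured cells, 16 of tumors), with groups and replicate numbers taken from the sample titles. Per the study's methods, the authors depleted ribosomal RNA, made directional libraries, counted transcripts with Salmon on the GENCODE mouse set and analysed them in iDEP. The authors deposited 1 table of log2 values. As read from the values, these are log2(normalized count + 4), and undoing the transform gave whole reads (tolerance 0.05) divided by 1 factor per library. The test was applied to the deposited log2 values, and no count model was run on the recovered reads. No other sample columns were present (0). Differences understate the change of genes with few reads, and a row can be 1 transcript of its gene.

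A row entered a fit when 4 or more of its libraries reached 5 normalized counts: 34215 in tumors, 29744 in cells and 37246 in the joint fit, which served comparisons of tumors with cells. The test was that of limma 3.58.1 (R 4.3.3), with lmFit and eBayes with a trend, with Benjamini-Hochberg adjustment over these rows and a threshold of 0.05. SD and SE are over libraries. Nothing in the labels says that cell libraries came from separate cultures, so their p-values measure only the spread between libraries. Intervals and floors cover counting error only. On simulated data, the test of KEAP1-KO against WT tumors recovered 60.7% of rows changed by 1 and 91.9% of rows changed by 2 on the log2 scale among 34215 rows. The changed rows were drawn only from rows above a minimum mean count, so recovery among rows with few reads was not measured.

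All 9 members were named, and of the other pathway genes every row called in at least 1 of 4 comparisons of adjacent genotypes, up to the 12 with the highest mean. The members and lists were chosen with earlier results of these data known. The values of 1 listed gene are not reported here. Promoters and their coordinates are from RefSeq (GRCm38.p6), and C1qa, C4b, Cfb and Serping1 had no entry. As alternatives, the pseudocount was set to 1, the filter was dropped or replaced by a mean of 25, libraries were scaled by quantiles, by medians or with the 20 highest rows left out, the fit was restricted to the groups compared, run without its trend or with replicate numbers as a block, a log2 difference of 1 was required, rows of a symbol were summed, and each library was left out.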

Additional observations from a re-analysis of the deposited data

Results flagged for a closer look

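A pair of values lay far from the other libraries of their group: Cfb at 2.0 (0 reads) and C5ar1 at 6.64, both in KEAP1-KO tumors B replicate 1. The test of the gap between the lowest or highest library and the next was run on 42 groups of 4, of which chance flags about 1 in 20. The number flagged here is near that share. The same tumor was the lowest of its group in 5 of the 9 genes, and its macrophage markers had the lowest sum (5681.9 normalized counts against 5924.6 to 6508.5), whereas its leukocyte markers did not (939.7 against 875.5 in replicate 3).

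A total of 12 effects passed the interaction test between tumors and cultured cells (limma). Of all rows, 5.38% were called for loss of KEAP1 and 3.67% for removal of NRF2. For loss of KEAP1 the differences were -1.31 for C1qa, -1.60 for C1qb, -1.31 for C1qc, -1.93 for C3, -3.59 for Cfb, -1.86 for Serping1, -2.68 for C3ar1 and -3.06 for C5ar1. For removal of NRF2 they were 2.49 for C3, 2.77 for Cfb, 3.56 for C3ar1 and 1.35 for C5ar1. With a pseudocount of 1, C1qa for KEAP1 loss (adjusted p = 0.133, limma) and C5ar1 for NRF2 removal (adjusted p = 0.0584) did not pass. Serping1 for KEAP1 loss did not pass with only the groups compared in the fit (adjusted p = 0.0504). Only C3 and C3ar1 had at least 1 read in all 12 cultured-cell libraries. C5ar1 had 4 reads in WT cells, so its value of -3.06 for loss of KEAP1 is given as a description. For C1qa, C1qb, C1qc, Cfb and Serping1 no effect in cells was tested, and the interaction carries little beyond the difference between tumors.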

How the results depend on the processing

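For DKO against KEAP1-KO tumors, the 5 called members became 4 with a pseudocount of 1 or a replicate block, 6 with a filter on a mean of 25 or only the groups compared, 7 with quantile normalization and 8 without the 20 highest rows. For KEAP1-KO against WT tumors 8 became 7 with the mean filter. For KEAP1-KO tumors B against A, 3 became 1 with no filter or only the groups compared, 4 with the mean filter, and 0 without the trend or with a minimum of 1. For DKO against WT tumors 0 became 1 with the mean filter. In cells, 2 became 1 in all 3 comparisons with the mean filter, and with a minimum of 1 in both comparisons with WT. Tumors against cells went from 9 to 6 in each genotype with the mean filter, which tests fewer rows, and to 8 in KEAP1-KO with median centring or only the groups compared. For the interaction with KEAP1 loss 8 became 7 (pseudocount of 1, or only the groups compared) or 6 (mean filter), and for that with NRF2 removal 4 became 3 (pseudocount of 1, or mean filter), 5 (without the 20 highest rows) or 6 (only the groups compared). Except where the filter tests fewer rows, the cause was not tested.

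With each library left out, counts of called members ranged from 8 to 9 for KEAP1-KO against WT tumors, 4 to 7 for DKO against KEAP1-KO tumors, 0 to 3 for KEAP1-KO tumors B against A, 0 to 3 for DKO against WT tumors, 1 to 2 for KEAP1-KO against WT cells, 8 to 9 and 4 to 5 for the interactions, and did not move elsewhere. C5ar1 in DKO against WT tumors (0.06) ranged from -0.05 to 0.15, being -0.05 without WT replicate 4 and -0.01 without DKO replicate 3, and the C1qa interaction with NRF2 removal was -0.14 with a pseudocount of 1.

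Over all rows, a minimum of 1 left 1976 of 4483 calls for KEAP1-KO against WT tumors, and the 56 calls for KEAP1-KO tumors B against A became 20 with no filter, 5 with only the groups compared, 8 without the trend, 25 with a minimum of 1, and 0 to 43 with each library left out. The share of calls that were higher moved from 47.7% to 61.7% (DKO against KEAP1-KO tumors) and from 43.3% to 59.9% (DKO against WT tumors) without the 20 highest rows. In tumors against cells it moved from 63.6% to 35.3% (WT), 61.5% to 42.9% (KEAP1-KO) and 63.5% to 40.1% (DKO) with median centring, which moved the median of all rows from 0.20 to -0.19, 0.17 to -0.08 and 0.23 to -0.14. With quantile normalization these shares were 47.2%, 50.2% and 49.4%, and without the 20 highest rows 79.5%, 75.5% and 79.4%. The share of interaction calls that were higher moved with median centring from 27.9% to 54.8% for KEAP1 loss, where the median of all rows moved from -0.05 to 0.11, and from 57.7% to 42.7% for NRF2 removal, which stood at 71.8% without the 20 highest rows. Same-numbered samples did not deviate together (r from -0.029 to 0.031), so the numbers were not taken as pairs, and the replicate block could not be estimated between experiments or between tumors and cells.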
